A study of Homo sapiens with 18 samples.

Results

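A549 cells, an established human line of alveolar epithelial origin from a lung carcinoma, were exposed to complete wood smoke or to clean air, and their messenger RNA was sequenced. The 6 libraries described here, 3 for each exposure, were taken from the sample labels and are 6 of the 18 libraries of the study. The other 12 hold 3 A549 libraries from filtered wood smoke and 9 libraries from BEAS-2B, an immortalised human bronchial epithelial line, under the same 3 exposures but with 500000 cells seeded. All cells were labelled wild type. In every A549 group 400000 cells were seeded 24 h ahead on a 24 mm porous insert and then exposed at the air-liquid interface for 4 h, with the smoke or air drawn over them at 100 mL/min and humidified to 85%, with medium on the basolateral side only. Control cells thus shared the insert, the flow, the humidity and the duration with the smoke-exposed cells. The sample numbers 1 to 3 recur in each group. Nothing in the labels says that the 3 samples of a group were separate cultures or exposures, so the p-values rest on a spread that may be technical. A549 is 1 carcinoma line, and a single time point was sampled.

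Wood smoke is an aerosol of particles and gases that carries polycyclic aromatic hydrocarbons, aldehydes and other reactive carbonyls. Polycyclic aromatic hydrocarbons bind the aryl hydrocarbon receptor, a ligand-gated transcription factor that switches on CYP1A1 and CYP1B1. Reactive carbonyls modify KEAP1 and so release NRF2, the factor behind glutathione synthesis and haem breakdown, and misfolded proteins release HSF1, which switches on chaperones. Growth factor and stress kinases act within minutes on the promoters of immediate early genes, a class of short genes that need no new protein to be transcribed. A549 cells carry a KEAP1 mutation, so that NRF2 target genes are already high in unexposed cells.

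Between 14438397 and 21432089 reads were assigned to genes in each of the 6 libraries. The cells had the markers of an epithelial line: KRT8 averaged 4035 CPM (the counts-per-million scale, on effective library sizes) in clean air. Of 8 alveolar type 2 markers 7 were under 1 CPM in all 6 libraries, and SFTPA1 and SLC34A2 had no read at all, so that ABCA3, at 50.8, 37.4 and 40.0 CPM in clean air and 56.6, 48 and 45.3 CPM after smoke, was the only one present in quantity. The genes that mark the high NRF2 state of this line were abundant in clean air, AKR1B10 at 1602 CPM on average and ALDH1A1 at 7705 CPM. Of 17 markers of ciliated, club, basal, fibroblast, endothelial and immune cells 13 were under 1 CPM and 3 were at 0, and their summed level ran from 64.5 to 93.6 CPM in clean air and from 40.4 to 78.5 CPM after smoke. Among these, FOXJ1 rose (1.83 on the log2 scale) and TP63 fell (-1.26). The read classes moved with exposure. Reads outside genes took 6.49% to 7.56% of uniquely mapped reads in clean air and 3.27% to 6.41% after smoke, and multimapping reads took 9.63% to 10.2% and 10.3% to 11.8% of all reads, with no overlap in either (2-sided exact permutation p = 0.1 each, the smallest that 3 against 3 can give). Complete smoke library 3 was the one nearest to the controls in both classes. The part of these shares in the results was not tested, and in bulk RNA a change in the number of cells of a kind and a change in RNA per cell cannot be told apart.

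Complete smoke changed a large part of the transcriptome of A549 cells. Of 15244 genes tested, 4951 passed (quasi-likelihood test of edgeR, adjusted for multiple tests by Benjamini-Hochberg to under 0.05), 2371 higher (15.6% of tested genes) and 2580 lower (16.9%). At least 2-fold changes were more often falls, 698 higher and 1189 lower, and larger ones more often rises: 121 genes were at least 4-fold higher and 84 at least 4-fold lower, 43 and 6 passed 8-fold, and 11 and 0 passed 16-fold. In 7999 genes (52.5%) the 3 values of one group all lay above the 3 of the other. Such separation, where given for single genes below, is thus common to these groups. The change was smaller in sample number 3: genes that passed as higher had a median log2 difference within their number of 0.84, 0.89 and 0.49 in numbers 1, 2 and 3, and those that passed as lower had -0.96, -1.02 and -0.70. With the sample number as a replicate block, 4159 genes passed as higher (27.3%) and 4162 as lower (27.3%), and all 4951 were among them with the same sign. Upper-quartile scaling gave 3040 higher and 2230 lower, and library size alone 1586 and 2984, where the median gene stood at -0.10 in place of 0.02. Without clean air library 1, 2 or 3 the number that passed was 2081, 1861 and 2278, without complete smoke library 1 or 2 it was 2003 and 1422, and without complete smoke library 3 it was 6805. In the same order, from clean air 1 to complete smoke 3, 6 counts of rises and of falls are given for most lists below under the words with 1 library left out. A call described as kept only without a certain library passed with all libraries and, among these 6 cases, in that one alone. Some genes stand in more than 1 list. The counts of rises and falls in each list are to be read beside the 15.6% and 16.9% of all genes.

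**Figure D1:**
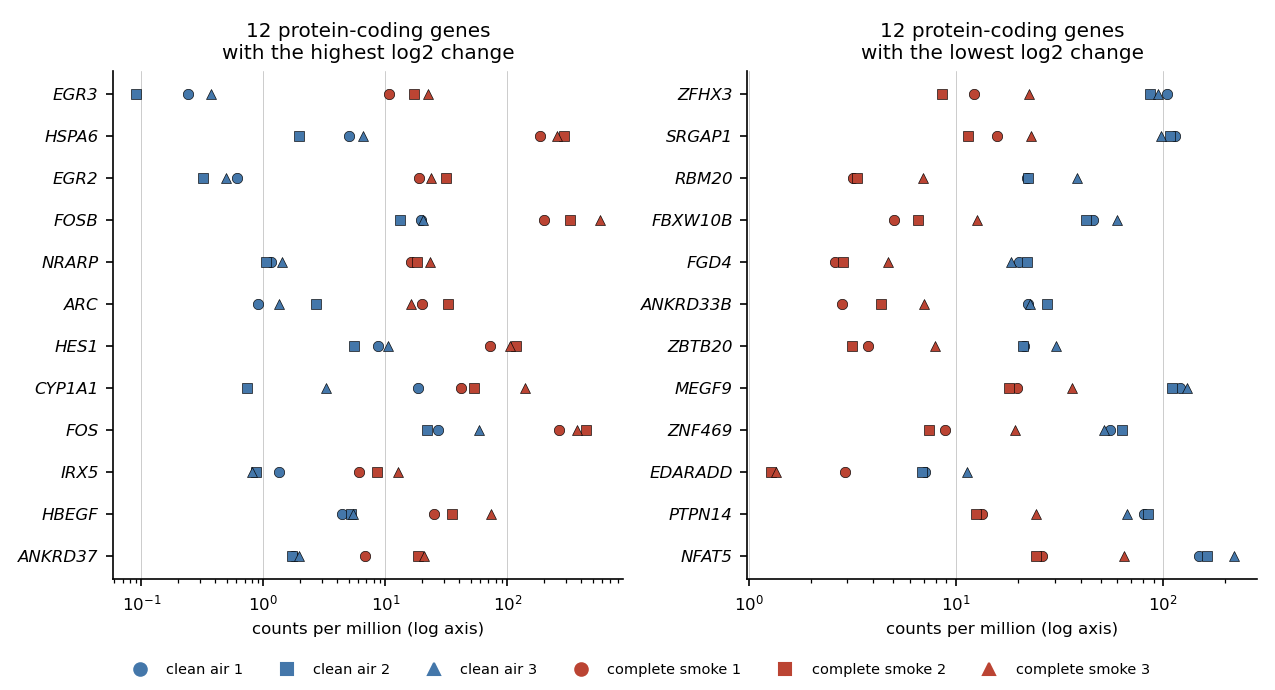
CPM on a log axis in each of the 6 A549 libraries, for the 12 protein-coding genes with the highest (left) and the 12 with the lowest (right) log2 change between complete smoke and clean air, among passing genes whose mean reached 5 CPM and that had a read in every library. Blue marks clean air, red marks complete smoke, and the symbol gives the sample number. The groups do not overlap in any of the 24 genes, a condition of their choice, and in 11 of the 12 falling genes complete smoke library 3 lies closest to the controls.

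The early growth response (EGR) genes, zinc-finger transcription factors that growth signals switch on, had some of the largest rises. EGR2 (ENSG00000122877, GRCh38 chromosome 10, 62811996 to 62919900) was at 0.607, 0.318 and 0.492 CPM in clean air and 18.9, 31.5 and 23.5 CPM after smoke, a change of 5.72 ± 0.38 (log2 ± SE here and below, adjusted p = 0.000385). EGR3 was at 0.243, 0.0909 and 0.369 CPM in clean air and 10.8, 17.1 and 22.5 CPM after smoke (6.20 ± 0.56, adjusted p = 0.000822), and its controls rest on 2 to 6 reads each. EGR1, the best known of the family, was at 15.6, 28.1 and 43.6 CPM in clean air and 143, 225 and 236 CPM after smoke (2.79 ± 0.41, adjusted p = 0.00254). All smoke-exposed libraries of these 3 genes lay well above all controls. EGR4 had no read in any control and 1.84, 2.56 and 0.681 CPM after smoke, which against a floor of 3 counts a control library is at least 10.1-fold higher (adjusted p = 0.00725). Of the list of 4 EGR factors and their NAB corepressors, 5 of 6 rose and none fell, with NAB2, a repressor that EGR factors induce, at 1.27 and NAB1 at -0.14 without passing. The list median was 4.26, or 3.06 with EGR4 at its bound, beside 0.02 for all genes (4, 4, 5, 5, 5 and 5 rises and no falls with 1 library left out).

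FOS and JUN proteins pair to form AP-1, and the small MAF and ATF proteins join the same dimers. FOSB (ENSG00000125740, GRCh38 chromosome 19, 45467995 to 45475179) was at 19.7, 13.2 and 20.5 CPM in clean air and 201, 326 and 570.3 CPM after smoke (4.36 ± 0.51, adjusted p = 0.0011). FOS was at 27.1, 21.8 and 58.4 CPM in clean air and 267, 439 and 375 CPM after smoke (3.34 ± 0.43, adjusted p = 0.00147). ATF3, a stress-induced member, was at 50.7, 43.9 and 36 CPM in clean air and 136, 297 and 429 CPM after smoke (2.72 ± 0.42, adjusted p = 0.00299). For FOSB and ATF3 the highest value was in complete smoke library 3, the library with the smaller change over all genes. JUN (2.50), MAFF (2.65), FOSL1 (1.79), JUNB (0.99) and JUND (0.85) also rose. JDP2, which represses AP-1 sites, fell (-1.44), as did ATF2 (-0.88), ATF7 (-0.86) and FOSL2 (-0.60). In all 9 of 18 tested members rose and 4 fell (19 in the list, BATF was not tested), with 8, 9, 8, 8, 8 and 9 rises and 4, 3, 3, 3, 2 and 4 falls with 1 library left out.

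The promoters of EGR1 and FOS are shown because both genes are textbook targets of serum response factor and of CREB, whose sites are known in them. They are the 250 bases before the gene start in RefSeq on GRCh38.p14, plus strand, EGR1 at chr5:138465229-138465478 and FOS at chr14:75278578-75278827, with CArG boxes (the core of the serum response element) and the short cyclic AMP motif CGTCA in capitals, on either strand.
EGR1: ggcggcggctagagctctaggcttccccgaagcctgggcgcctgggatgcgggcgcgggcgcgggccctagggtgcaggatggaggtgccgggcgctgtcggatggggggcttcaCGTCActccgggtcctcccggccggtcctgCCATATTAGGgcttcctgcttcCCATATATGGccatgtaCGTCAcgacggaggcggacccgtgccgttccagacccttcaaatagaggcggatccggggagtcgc
FOS: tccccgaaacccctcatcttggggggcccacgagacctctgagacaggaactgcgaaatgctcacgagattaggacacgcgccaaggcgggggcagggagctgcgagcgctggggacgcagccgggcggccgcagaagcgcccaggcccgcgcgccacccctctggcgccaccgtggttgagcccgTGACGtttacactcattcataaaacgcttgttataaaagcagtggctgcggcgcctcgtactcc
EGR1 held 2 CArG boxes, starting 105 and 83 bases before the gene start, and the short motif at 135 and 66 bases. The window of FOS held the short motif 64 bases before the start and no CArG box, which says only that these letters are not in this stretch. Over windows that also take 50 bases after the start, a CArG box was in 2.05% of 342 promoters of protein-coding genes at least 2-fold higher. It was in 1.05% of 10353 promoters of tested protein-coding genes and in 1.29% of all 27305 promoters. The short motif, which lies within every full cyclic AMP response element, was in 36.55%, 34.28% and 25.01% of the same sets.

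Of 24 further immediate early genes 15 rose and none fell (20 and 0 with the block), with a list median of 1.43. SNAI1, a repressor of epithelial cadherin, was at 5.82, 3.14 and 4.31 CPM in clean air and 27.5, 38.1 and 39.5 CPM after smoke (2.995 ± 0.30, adjusted p = 0.000914). ARC, known from activity-regulated synapses, was at 0.91, 2.68 and 1.35 CPM in clean air and 20.1, 32.6 and 16.3 CPM after smoke (3.76 ± 0.45, adjusted p = 0.0012). IER2 was at 62.7, 62.9 and 47.4 CPM in clean air and 216, 284 and 206 CPM after smoke (2.03 ± 0.22, adjusted p = 0.00101). None of the 3 overlapped between groups, as was so for 52.5% of all genes. IER5 (1.96), CSRNP1 (1.59), GEM (1.48), IER3 (1.46) and RHOB (1.05) rose too. NR4A2, an orphan nuclear receptor, was at 15.8, 13.1 and 21.2 CPM in clean air and 40.6, 56.1 and 126 CPM after smoke (2.15 ± 0.52, adjusted p = 0.0149), a call lost without clean air library 1 or 2, and a change of 1.54 without complete smoke library 3. MYC (0.23) and MCL1 (0.09), which respond early in many cells, did not pass. The rises in this list numbered 9, 11, 9, 15, 9 and 13 with 1 library left out, with no falls.

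Feedback inhibitors of the MAP kinase cascade went both ways. DUSP6, the ERK phosphatase, was at 17.9, 24.2 and 17.7 CPM in clean air and 38.1, 60.7 and 50.4 CPM after smoke (1.32 ± 0.21, adjusted p = 0.00329). SPRY4, an inhibitor of receptor tyrosine kinase signalling, was at 19.2, 21.2 and 18.2 CPM in clean air and 35, 39.1 and 68 CPM after smoke (1.28 ± 0.29, adjusted p = 0.0118). DUSP2 had 1 or 2 reads in each control and 1.56, 2.6 and 0.738 CPM after smoke (adjusted p = 0.00365). These 3 genes were higher in all smoke-exposed libraries. DUSP1 rose by 0.93 (adjusted p = 0.012, lost without complete smoke library 2), SPRY2 by 0.96, DUSP14 by 0.78 and DUSP5 by 0.75, whereas SPRED2 was at 36.8, 40.7 and 35.2 CPM in clean air and 18.5, 18.9 and 19.2 CPM after smoke (-0.99 ± 0.14, adjusted p = 0.00202) and SPRY1 fell (-0.66). Of 19 members 7 rose and 2 fell, or 7 and 7 with the block. The rises numbered 4, 5, 6, 6, 3 and 5 with 1 library left out, beside 1, 1, 1, 1, 1 and 6 falls.

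Among the ligands of the epidermal growth factor receptor, HBEGF was at 4.43, 5.27 and 5.47 CPM in clean air and 25, 35 and 73.1 CPM after smoke (3.13 ± 0.50, adjusted p = 0.00321), highest in number 3. AREG, amphiregulin, was at 33.2, 30.4 and 29.5 CPM in clean air and 64.6, 86.2 and 67 CPM after smoke (1.23 ± 0.19, adjusted p = 0.00285). The receptor itself went the other way: EGFR (ENSG00000146648, GRCh38 chromosome 7, 55019021 to 55211628) was at 383, 376 and 312 CPM in clean air and 131, 124 and 199 CPM after smoke (-1.24 ± 0.26, adjusted p = 0.00912). NRG1, a ligand of ERBB3, also fell, from 314, 320.3 and 345 to 176, 167 and 164 CPM (-0.95 ± 0.13, adjusted p = 0.00192), while ERBB2 (-0.11) and ERBB3 (-0.09) did not pass. Thus 2 of 12 tested members rose and 2 fell, shares near those of all genes, or 3 and 4 with the block (2, 2, 2, 2, 2 and 2 rises and 2, 2, 2, 2, 2 and 3 falls with 1 library left out). Of the Krüppel-like factors KLF4 was at 22.1, 18.6 and 18 CPM in clean air and 58.2, 71.2 and 84.2 CPM after smoke (1.86 ± 0.19, adjusted p = 0.00101), and KLF16 (1.02) and KLF10 (1.19, kept only without complete smoke library 1) rose as well. KLF12 was at 11.6, 13.3 and 16.8 CPM in clean air and 3.26, 3 and 4.6 CPM after smoke (-1.94 ± 0.28, adjusted p = 0.00215), and KLF7 (-1.32) and KLF3 (-0.77) fell. KLF6 (0.59) did not pass. Of 12 tested members 3 rose and 3 fell (25% each, beside 15.6% and 16.9% of all genes). With the block 6 rose and 3 fell (1, 1, 1, 2, 1 and 3 rises and 2, 2, 2, 2, 2 and 3 falls with 1 library left out).

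Helix-loop-helix repressors, which block differentiation factors, rose together: 8 of 11 tested members passed as higher and none as lower, with a median of 2.20 (13 in the list, HES5 and HEY2 were not tested, and 8, 7, 7, 7, 7 and 8 rises and no falls with 1 library left out). ID2, which binds and disables basic helix-loop-helix factors, was at 46.4, 28.4 and 33.9 CPM in clean air and 177, 254 and 230.4 CPM after smoke (2.60 ± 0.22, adjusted p = 0.000781). HES1, a Notch target and repressor, was at 8.74, 5.55 and 10.5 CPM in clean air and 71.7, 118 and 104 CPM after smoke (3.58 ± 0.33, adjusted p = 0.000822). HEY1, another Notch target, was at 1.4, 1.09 and 1.17 CPM in clean air and 3.83, 5.06 and 7.84 CPM after smoke (2.20 ± 0.46, adjusted p = 0.00938). HES4 (2.21), HES6 (2.06) and ID1 (0.88) passed too, and ID4 and HES7 passed from under 0.5 CPM in every control. ID3 (0.10) did not pass. NRARP, a feedback inhibitor of Notch, was at 1.15, 1.05 and 1.42 CPM in clean air and 16.2, 18.2 and 23.2 CPM after smoke (3.997 ± 0.31, adjusted p = 0.000487). Some other members of the same pathway fell, among them the receptors NOTCH1 (-1.16) and NOTCH2 (-0.92), RBPJ (-1.30) and the coactivator MAML3 (-1.83). The coactivator MAML2 was at 14.4, 13.9 and 15.7 CPM in clean air and 4.32, 2.75 and 4.49 CPM after smoke (-1.93 ± 0.26, adjusted p = 0.00191). Of 20 tested members of the Notch list 5 rose and 6 fell. The median genomic span was 3.30 kb in the helix-loop-helix list and 39.1 kb in the Notch list, a property taken up below for all genes. The Notch members that rose numbered 3, 3, 3, 3, 3 and 5 with 1 library left out, beside 5, 5, 5, 5, 5 and 8 falls.

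Regulators of G protein signalling and GADD45 stress sensors gave 8 rises and no fall among 15 tested. GADD45B was at 40.8, 23.6 and 26 CPM in clean air and 118, 184 and 140.3 CPM after smoke (2.29 ± 0.27, adjusted p = 0.0011). RGS2 was at 40.6, 35.2 and 46.9 CPM in clean air and 118, 163 and 104 CPM after smoke (1.65 ± 0.20, adjusted p = 0.0012). RGS16 was at 0.121, 0.318 and 0.369 CPM in clean air and 5.6, 6.98 and 4.83 CPM after smoke (4.38 ± 0.44, adjusted p = 0.000914). GADD45A (1.52), RGS10 (1.19) and RGS19 (0.94) also rose, and GADD45G passed with 3, 6 and 0 reads in the controls and 3.29 as its fitted change (4.07 without clean air library 2). The rises numbered 6, 6, 6, 6, 5 and 8 with 1 library left out, with no falls. Other genes among the 12 highest were IRX5, a homeobox factor, at 1.33, 0.864 and 0.8 CPM in clean air and 6.1, 8.5 and 12.8 CPM after smoke (3.19 ± 0.32, adjusted p = 0.000914), and ANKRD37, at 1.76, 1.73 and 1.97 CPM in clean air and 6.8, 18.4 and 20.8 CPM after smoke (3.08 ± 0.46, adjusted p = 0.00256).

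Among the chaperones the largest change was in HSPA6, an HSP70 that is silent in many unstressed cells. It was at 5.04, 1.96 and 6.52 CPM in clean air and 186, 289 and 254 CPM after smoke (5.77 ± 0.52, adjusted p = 0.000822). Its near-identical pseudogene HSPA7 (5.08) shares reads with it, so the split between the pair is uncertain. The promoter of HSPA6 is shown for the heat shock element, the site of HSF1, in capitals: the 250 bases before the start in RefSeq on GRCh38.p14, chr1:161524290-161524539, plus strand.
HSPA6: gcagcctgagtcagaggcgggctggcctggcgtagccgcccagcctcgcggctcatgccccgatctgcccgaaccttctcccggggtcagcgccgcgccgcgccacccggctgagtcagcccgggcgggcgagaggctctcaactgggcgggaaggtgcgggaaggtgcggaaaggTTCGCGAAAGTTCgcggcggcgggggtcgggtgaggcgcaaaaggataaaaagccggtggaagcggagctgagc
The element starts 74 bases before the gene start. It was found in 0.487% of 27305 promoters, in 0.319% of those of tested protein-coding genes and in 2 of the 342 promoters of genes at least 2-fold higher (0.585%). Other members moved less. DNAJB5, an HSP40 cochaperone, was at 4.19, 3.77 and 4.12 CPM in clean air and 9.14, 10.3 and 10.6 CPM after smoke (1.31 ± 0.23, adjusted p = 0.00475). DNAJB1, a textbook HSF1 target, was at 291, 276 and 349.6 CPM in clean air and 409, 660.1 and 719 CPM after smoke (0.96 ± 0.27, adjusted p = 0.0241), a call lost without clean air library 1, 2 or 3 or complete smoke library 2. FKBP4 (1.07), HSPB1 (0.85), HSPE1 (0.80) and HSF1 (0.84) passed. Among the members that did not pass were HSPA8 (0.02), HSP90AA1 (-0.09), HSPH1 (0.01), DNAJA1 (-0.19) and BAG3 (-0.27). HSPA1A, HSPA1B and HSPA1L were under the count minimum and were not tested, and the first pair are near-identical copies whose reads map to both places. In all 13 of 32 tested members rose and 2 fell, with a median of 0.30. The rises numbered 6, 4, 4, 6, 5 and 14 with 1 library left out, beside 0, 0, 0, 0, 0 and 2 falls.

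Genes of the integrated stress response split as well. PPP1R15A (GADD34, the subunit that brings the phosphatase to eIF2 alpha) was at 154, 171 and 118 CPM in clean air and 642, 1020 and 1129 CPM after smoke (2.65 ± 0.27, adjusted p = 0.00101). DDIT3 (CHOP) was at 16.9, 22.7 and 13.3 CPM in clean air and 43.2, 84.3 and 39.8 CPM after smoke (1.66 ± 0.32, adjusted p = 0.00716). ATF4, the central factor, rose by 0.75 and ATF5 by 0.71, and STC2 rose by 1.37. Amino acid and redox targets of ATF4 did not follow: ASNS (-0.16), PSAT1 (-0.26), TRIB3 (-0.04), CHAC1 (-0.85) and SESN2 (-0.23) did not pass, and PSPH fell (-0.65). Among the sensor kinases EIF2AK3 (PERK, -1.05), EIF2AK2 (PKR, -0.91) and EIF2AK4 (GCN2, -0.51) fell. Of 27 members 6 rose (22.2%) and 7 fell (25.9%), beside 15.6% and 16.9% of all genes, with a median of -0.04. The falls numbered 3, 5, 4, 3, 2 and 6 with 1 library left out, beside 4, 4, 4, 5, 4 and 7 rises.

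A full cyclic AMP response element (CRE), TGACGTCA, the palindrome bound by CREB and ATF factors, was in 7.02% of the promoters of genes at least 2-fold higher (24 of 342), in 3.30% of those of all tested protein-coding genes (342 of 10353) and in 1.64% of those of genes at least 2-fold lower (14 of 854). Of these 24 elements 21 started within 100 bases before the gene start, and positions in the other promoters were not measured. Of the 12 highest genes 9 matched a promoter, and none of these held the full element. The shares describe letters in these windows and are no test, and the median GC content of the 3 sets was 67.7%, 65.3% and 66.7%. The promoters of 3 rising genes with the element are given, 250 bases before the start in RefSeq on GRCh38.p14, plus strand, with the element in capitals. They are MAFF at chr22:38201744-38201993, PPP1R15A at chr19:48872171-48872420 and AREG at chr4:74444886-74445135.
MAFF: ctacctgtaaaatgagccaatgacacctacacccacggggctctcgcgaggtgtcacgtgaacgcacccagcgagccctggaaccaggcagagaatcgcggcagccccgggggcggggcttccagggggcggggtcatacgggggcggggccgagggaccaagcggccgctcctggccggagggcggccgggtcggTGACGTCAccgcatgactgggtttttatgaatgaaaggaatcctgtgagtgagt
PPP1R15A: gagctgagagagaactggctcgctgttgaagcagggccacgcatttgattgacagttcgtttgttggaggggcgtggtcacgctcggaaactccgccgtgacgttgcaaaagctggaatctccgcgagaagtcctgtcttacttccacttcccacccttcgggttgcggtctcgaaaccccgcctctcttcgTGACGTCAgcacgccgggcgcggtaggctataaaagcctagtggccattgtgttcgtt
AREG: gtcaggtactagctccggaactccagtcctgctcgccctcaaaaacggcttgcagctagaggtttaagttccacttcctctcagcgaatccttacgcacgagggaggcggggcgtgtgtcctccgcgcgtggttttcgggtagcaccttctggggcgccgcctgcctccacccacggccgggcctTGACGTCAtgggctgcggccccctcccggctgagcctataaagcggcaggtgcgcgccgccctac
The element starts 54, 58 and 65 bases before the start of MAFF, PPP1R15A and AREG, close to the median of 62.5 bases over the 24. GPR3, a receptor that raises cyclic AMP, had the largest rise among the 24 (3.18), followed by PPP1R15A (2.65), MAFF (2.65) and the claudin CLDN6 (2.25), named after their values were seen. The AP-1 site TGANTCA was in 2.63% of the promoters of genes at least 2-fold higher, against 4.63% of all tested protein-coding genes. The aryl hydrocarbon core GCGTG was in 52.3% and 50.8%.

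Genes of glutathione synthesis and haem breakdown, most of them known NRF2 targets, went both ways. HMOX1, haem oxygenase 1 (ENSG00000100292, GRCh38 chromosome 22, 35380361 to 35394214), was at 1424, 1207 and 1511 CPM in clean air and 261, 348 and 525 CPM after smoke (-1.87 ± 0.24, adjusted p = 0.00152). SLC7A11, the cystine carrier that feeds glutathione synthesis, was at 613, 636 and 685 CPM in clean air and 144, 151 and 265 CPM after smoke (-1.79 ± 0.33, adjusted p = 0.00607). GCLC, the catalytic subunit of glutamate-cysteine ligase, was at 334, 323 and 372 CPM in clean air and 129.9, 158 and 159.7 CPM after smoke (-1.20 ± 0.14, adjusted p = 0.00116). None of the 3 overlapped between groups, as was so for 52.5% of all genes, and HMOX1 was lowest in number 1. The modifier subunit GCLM (-0.93 ± 0.15), TXNRD1 (-0.95 ± 0.18), the iron exporter SLC40A1 (-1.35 ± 0.26) and the efflux pumps ABCC1 (-1.12) and ABCC2 (-0.88) fell as well, and the first 3 of these kept their calls with any 1 library left out. In a fit of all 18 libraries GCLM and SLC7A11 did not pass. Other enzymes of the same list rose: GPX1 (1.07), GPX4 (0.90), BLVRB (0.82), BLVRA (0.80), GSS (0.70) and the transferrin receptor TFRC (0.67). NQO1, at 1922, 1695 and 1742 CPM in clean air and 2335, 2351 and 1740 CPM after smoke, did not pass (0.26 ± 0.20, adjusted p = 0.313), nor did NFE2L2 (NRF2, -0.29) or KEAP1 (-0.37). Of 32 tested members 6 rose (18.8%) and 8 fell (25%), beside 15.6% and 16.9% of all genes. With the block 12 rose and 11 fell, and SRXN1 was not tested. Left out in turn, each of the clean air libraries and complete smoke 1 and 2 took the rises to 0, without complete smoke library 3 there were 9, and 7 to 9 members fell in all 6 cases.

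More enzymes that make NADPH or remove aldehydes rose than fell. The rises were 20% and 25.6% of tested members, beside 15.6% of all genes, so the first share was near that of all genes. In the pentose phosphate list 3 of 15 rose and none fell (7 and 2 with the block, 1, 0, 1, 1, 0 and 6 rises and 0, 0, 0, 0, 0 and 1 falls with 1 library left out): TKT, transketolase, was at 1692, 1489 and 1453 CPM in clean air and 2926, 2836 and 1991 CPM after smoke (0.74 ± 0.23, adjusted p = 0.0331). IDH2 was at 39.1, 34.7 and 37.5 CPM in clean air and 76.3, 81.1 and 53 CPM after smoke (0.92 ± 0.21, adjusted p = 0.0125). Both were higher in each smoke-exposed library and least so in number 3. TKT kept its call only without complete smoke library 3, and IDH2 lost it without clean air library 2 or complete smoke library 2. Among aldehyde, carbonyl and conjugating enzymes 10 of 39 rose and 1 fell, or 23 and 1 with the block, with a median of 0.49. HAGH, the glyoxalase II that clears methylglyoxal adducts, was at 25.5, 23.9 and 22 CPM in clean air and 54.3, 55.3 and 39.5 CPM after smoke (1.06 ± 0.20, adjusted p = 0.00646), and it alone of the named enzymes kept its call with any library left out. GSTM3 was at 4.85, 4.77 and 4.18 CPM in clean air and 10.6, 11 and 8.01 CPM after smoke (1.10 ± 0.24, adjusted p = 0.0108, lost without complete smoke library 2). ALDH3A1, an aldehyde dehydrogenase known to be high in A549 cells, was at 2463, 2428 and 2061 CPM in clean air and 4307, 4850 and 2769 CPM after smoke (0.78 ± 0.28, adjusted p = 0.0563) and passed with the block (adjusted p = 0.00212). The rises in that list numbered 4, 2, 3, 2, 1 and 21 with 1 library left out, beside 0, 0, 0, 0, 0 and 1 falls.

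CYP1A1 and CYP1B1, the cytochromes P450 induced by the aryl hydrocarbon receptor, rose. CYP1A1 (ENSG00000140465, GRCh38 chromosome 15, 74719542 to 74725610) was at 18.5, 0.727 and 3.26 CPM in clean air and 41.9, 53.2 and 140.0 CPM after smoke (3.40 ± 0.88, adjusted p = 0.0192). CYP1B1 (ENSG00000138061, GRCh38 chromosome 2, 38066973 to 38109902) was at 243, 87.6 and 241 CPM in clean air and 435, 412 and 1182 CPM after smoke (1.83 ± 0.48, adjusted p = 0.0203). Within each number both genes were higher after smoke, but the controls spread widely, from 0.727 to 18.5 CPM for CYP1A1, and the highest value of both was in complete smoke library 3. Without clean air library 1 the change of CYP1A1 was 5.34, and without complete smoke library 3 it was 2.68 for CYP1A1 and 1.15 for CYP1B1. The CYP1A1 call was lost without clean air library 3 (adjusted p = 0.0733) and the CYP1B1 call without clean air library 2 (adjusted p = 0.0643). TIPARP, a feedback inhibitor of the receptor, was at 141, 80.9 and 98.5 CPM in clean air and 114, 141 and 245 CPM after smoke and did not pass (0.64 ± 0.32, adjusted p = 0.138, or 0.0496 with the block). AHRR, the receptor's repressor, stayed under 2 CPM and did not pass (-1.02 ± 0.52, adjusted p = 0.143). AHR (-0.45), ARNT (-0.34) and UGT1A6 (0.03) did not pass, and ARNT2 fell (-0.53 ± 0.13, lost without clean air library 2 or complete smoke library 1 or 2). Of 11 tested members 3 rose and 1 fell (5 and 3 with the block, and 3, 2, 2, 3, 3 and 4 rises and 1, 0, 1, 0, 0 and 3 falls with 1 library left out), and CYP1A2 was not tested.

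The filtered smoke libraries of the same line, which share the clean air controls, were set beside these values. CYP1A1 was at 2.05, 3.85 and 2.93 CPM and CYP1B1 at 67.2, 75.1 and 116 CPM in numbers 1 to 3, all below the complete smoke library of their number. TIPARP was at 47.9, 50.9 and 80.9 CPM, again below in each number. EGR2 was at 24.8, 48.1 and 43.5 CPM, HSPA6 at 174, 395 and 486 CPM and HMOX1 at 309.5, 304 and 366 CPM, and for these 3 genes the ranges of the 2 kinds of smoke overlapped. Between complete and filtered smoke no gene passed over 15244 tested (0%, edgeR), with 236 at an unadjusted p under 0.05, 0 by limma-voom and 3 by DESeq2. The differences were 4.72 ± 0.96 for CYP1A1, 2.97 ± 0.51 for CYP1B1 and 1.48 ± 0.33 for TIPARP (log2 complete minus filtered ± SE, adjusted p = 0.998 each). With the block CYP1B1 alone passed (2.84, adjusted p = 0.00298). The 3 genes called by DESeq2 were CYP1B1 (adjusted p = 2.71e-06), BMF (0.0229) and CYP1A1 (0.034), named here after their values were seen.

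**Figure D2:**
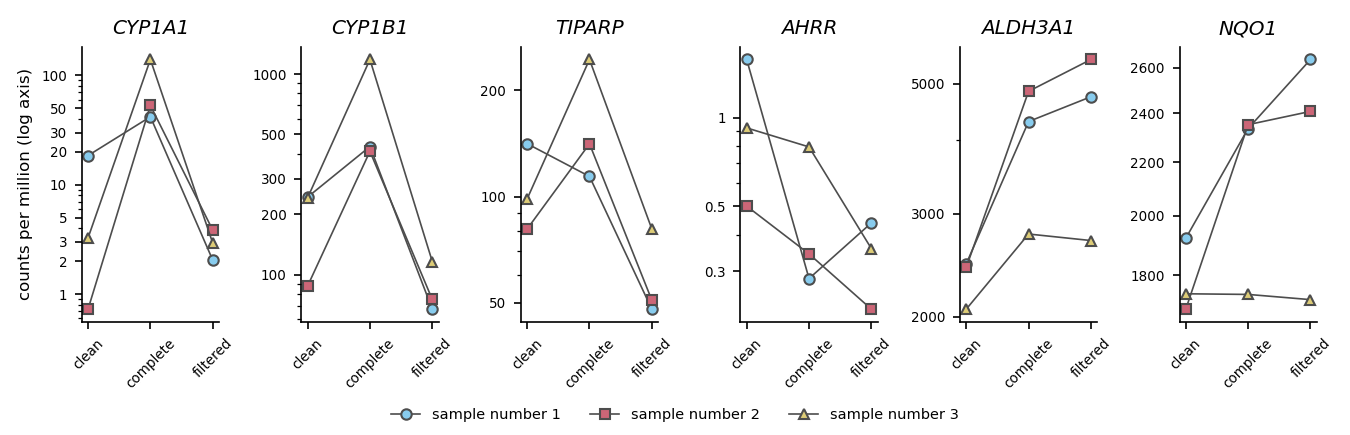
CPM on log axes, 1 panel a gene, in clean air, complete smoke and filtered smoke, with the libraries of a sample number joined by a line. CYP1A1 and CYP1B1 peak after complete smoke in all 3 numbers and TIPARP in numbers 2 and 3, whereas ALDH3A1 is above clean air after both kinds of smoke in each number and AHRR and NQO1 show no common order.

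Targets of p53 went both ways. MDM2, the ubiquitin ligase that degrades p53 and is its target, was at 422, 461 and 434 CPM in clean air and 84.5, 106 and 165 CPM after smoke (-1.89 ± 0.35, adjusted p = 0.00584). POLH, a translesion polymerase, was at 53.3, 65.1 and 56.4 CPM in clean air and 17, 19.6 and 28.4 CPM after smoke (-1.42 ± 0.24, adjusted p = 0.00426). CDKN1A (p21) was at 494, 604 and 564 CPM in clean air and 353, 622 and 604 CPM after smoke and did not pass (-0.07 ± 0.26, adjusted p = 0.842). So the feedback ligase was lower in every exposed library, while the values of the cell cycle inhibitor overlapped. FAS (-0.82), TNFRSF10B (-0.67) and PPM1D (-0.73) fell, and SERTAD1, at 45, 51.3 and 44.1 CPM in clean air and 181, 327 and 259.6 CPM after smoke (2.45 ± 0.27, adjusted p = 0.00101), GDF15 (1.21) and BTG2 (0.94) rose. Of 31 members 4 rose and 6 fell, shares near those of all genes, or 7 and 15 with the block. Among the BCL2 family PMAIP1 (NOXA), a BH3-only inducer of apoptosis, was at 37.1, 46.2 and 41.3 CPM in clean air and 125, 199 and 223 CPM after smoke (2.13 ± 0.26, adjusted p = 0.00121). Of 19 tested members 3 rose and 1 fell, or 6 and 4 with the block (1, 1, 1, 2, 1 and 6 rises and 0, 1, 0, 0, 0 and 3 falls with 1 library left out), and BAX (0.28), BBC3 (-0.33) and BCL2L11 (-0.94) did not pass. The p53 targets that fell numbered 3, 2, 2, 2, 2 and 13 with 1 library left out, beside 2, 3, 2, 4, 2 and 4 rises.

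Genes of the G1 to S transition went both ways. CDK6, the D-cyclin kinase (ENSG00000105810, GRCh38 chromosome 7, 92604921 to 92836594), was at 216, 203 and 230.0 CPM in clean air and 42.6, 31.5 and 77.9 CPM after smoke (-2.09 ± 0.40, adjusted p = 0.0065). E2F1, the factor that drives S-phase genes, was at 27.4, 30.8 and 26.7 CPM in clean air and 82.9, 69.3 and 47.5 CPM after smoke (1.23 ± 0.26, adjusted p = 0.00919). RBL1 (p107) was at 57.2, 55.7 and 52.9 CPM in clean air and 24, 21.4 and 26.7 CPM after smoke (-1.20 ± 0.20, adjusted p = 0.00375). CDKN2D (1.25), CDK2 (1.03) and CCNE1 (0.68) rose, RB1 (-0.67) and E2F3 (-1.07) fell, and CCND1 (-0.46) did not pass. In sum 4 of 25 tested members rose and 5 fell, shares near those of all genes, or 7 and 7 with the block (4, 4, 4, 4, 4 and 5 rises and 4, 3, 4, 3, 2 and 6 falls with 1 library left out). In the MYC network MXD1, a MYC antagonist, was at 17, 16.2 and 12.5 CPM in clean air and 31.9, 45.8 and 82.1 CPM after smoke (1.81 ± 0.42, adjusted p = 0.0135, lost without clean air library 3), and MGA (-1.83, lost without complete smoke library 2) and MLXIP (-1.34) fell. Of 12 tested members of that list 1 rose and 2 fell (1, 1, 0, 1, 1 and 1 rises and 2, 2, 2, 2, 1 and 2 falls with 1 library left out).

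Of 26 epithelial cytokines and chemokines only 13 were high enough to test, and 7 of these rose and 1 fell, or 9 and 2 with the block. CXCL8 (interleukin 8), which draws neutrophils, was at 12, 13.3 and 19.2 CPM in clean air and 25.4, 56.2 and 95.9 CPM after smoke (1.999 ± 0.43, adjusted p = 0.0102). CXCL2 was at 7.28, 11 and 10.9 CPM in clean air and 14.9, 19.9 and 28.6 CPM after smoke (1.12 ± 0.26, adjusted p = 0.0135, lost without clean air library 1). IL6 was at 0.849, 0.727 and 1.42 CPM in clean air and 0.992, 2.46 and 4.43 CPM after smoke, with overlapping groups (1.43 ± 0.48, adjusted p = 0.0451, kept only without complete smoke library 1). IL1A, IL1B, TNF, CCL20 and CSF2 were among the 13 that were not tested. CSF1 fell (-0.96). Of 19 NF-kB subunits and inhibitors 5 rose and 1 fell, or 6 and 5 with the block: RELB was at 8.19, 10.2 and 9.78 CPM in clean air and 26.2, 23.6 and 17.8 CPM after smoke (1.26 ± 0.23, adjusted p = 0.00522), and NFKB1 was at 59.3, 50.1 and 55.2 CPM in clean air and 24.1, 24.6 and 31.6 CPM after smoke (-1.04 ± 0.16, adjusted p = 0.00287), with 1, 1, 1, 2, 1 and 4 rises and 1, 1, 1, 1, 1 and 3 falls with 1 library left out. NFKBIA (-0.14) and TNFAIP3 (0.03), the usual feedback targets of NF-kB, did not pass. ZFP36 (tristetraprolin), which destabilises cytokine messages, was at 28.6, 28 and 30.3 CPM in clean air and 110.0, 120.5 and 86.4 CPM after smoke (1.87 ± 0.20, adjusted p = 0.00101), and TOB1 (1.01) and TOB2 (1.01) rose. The deadenylases CNOT6 (-1.21 ± 0.24) and CNOT6L (-1.23 ± 0.31, lost without clean air library 2 or 3 or complete smoke library 1 or 2) and the scaffold CNOT1 (-0.86) fell, so that 5 of 25 messenger RNA decay factors rose and 8 fell (2, 2, 3, 5, 2 and 4 rises and 5, 3, 4, 4, 2 and 12 falls with 1 library left out). The cytokines that rose numbered 3, 3, 5, 6, 3 and 4 with 1 library left out, beside 1, 1, 1, 1, 1 and 2 falls.

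Enzymes that modify histones fell more often than they rose. Of 56 tested enzymes that add or remove histone methyl and acetyl groups 29 fell and 5 rose, with a median of -0.71. NSD1, a histone H3 lysine 36 methyltransferase (ENSG00000165671, GRCh38 chromosome 5, 177133025 to 177300215), was at 199, 214 and 186 CPM in clean air and 44.9, 46.7 and 76.6 CPM after smoke (-1.83 ± 0.30, adjusted p = 0.00375). KAT6B, an acetyltransferase, was at 5.88, 7 and 9.17 CPM in clean air and 1.42, 1.38 and 2.16 CPM after smoke (-2.15 ± 0.47, adjusted p = 0.0111, lost without complete smoke library 2). The coactivators CREBBP (-1.65) and EP300 (-1.50) and the methyltransferases KMT2A (-1.40), KMT2C (-1.62), KMT2D (-1.39) and SETD2 (-1.43) fell. HDAC11 (1.22), HDAC3 (0.74) and HDAC2 (0.36) rose, and EZH2 (-0.02) and KDM1A (0.01) did not pass. The falls numbered 21, 21, 21, 21, 15 and 32 with 1 library left out, beside 2, 1, 2, 2, 1 and 6 rises. Their median genomic span was 83.0 kb, beside 28.8 kb for all genes tested. Of 25 factors of transcription pause release 7 fell, among them AFF1 (-1.99 ± 0.44, lost without complete smoke library 2), and 3 rose, or 11 and 6 with the block (1, 1, 1, 3, 0 and 6 rises and 3, 4, 5, 3, 2 and 10 falls with 1 library left out). HEXIM1, the inhibitor of P-TEFb, was at 255, 236 and 259.9 CPM in clean air and 327, 390.3 and 456 CPM after smoke (0.64 ± 0.17, adjusted p = 0.0196, lost without clean air library 1, 2 or 3 or complete smoke library 2). CDK9 (-0.01) did not pass.

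Zinc-finger genes followed the same direction. Of 376 tested ZNF genes 109 fell and 8 rose (181 and 20 with the block), with a median of -0.44, and of 34 ZBTB factors 9 fell and none rose (19 and 1 with the block, 0, 0, 0, 1, 0 and 0 rises and 5, 2, 2, 2, 2 and 19 falls with 1 library left out). ZNF608 was at 21.8, 21.3 and 27.2 CPM in clean air and 5.46, 4.67 and 7.5 CPM after smoke (-1.996 ± 0.25, adjusted p = 0.0014). ZBTB20, a repressor of developmental genes, was at 21.4, 21.2 and 30.5 CPM in clean air and 3.76, 3.14 and 7.89 CPM after smoke (-2.30 ± 0.37, adjusted p = 0.00332). ZNF296 was at 1.58, 2.05 and 1.23 CPM in clean air and 10.8, 11.5 and 5.79 CPM after smoke (2.51 ± 0.35, adjusted p = 0.00194), against the direction of its family. The ZNF genes that fell numbered 56, 41, 61, 46, 36 and 148 with 1 library left out, beside 2, 3, 3, 3, 2 and 16 rises. Their median span was 23.7 kb, and since many of them resemble each other closely, reads can be shared between neighbours of the family. Among the clock genes PER1 was at 9.1, 7.5 and 8.24 CPM in clean air and 21.3, 22.4 and 45.1 CPM after smoke (1.84 ± 0.33, adjusted p = 0.00526) and PER2 at 33.4, 34 and 37.6 CPM in clean air and 14.2, 12.9 and 14 CPM after smoke (-1.35 ± 0.16, adjusted p = 0.00117), so that these paralogues of the negative limb went opposite ways. NR1D1 (REV-ERB alpha) rose (1.32 ± 0.20) and CLOCK fell (-1.18). In all 3 of 22 tested clock genes rose and 4 fell, shares near those of all genes (2, 2, 2, 2, 2 and 3 rises and 2, 2, 3, 3, 1 and 4 falls with 1 library left out). Of the splicing factors SRSF5 (1.05 ± 0.12) and SRSF7 (0.93 ± 0.16) rose and the kinase SRPK2 fell (-0.77 ± 0.16). In that list 4 of 23 members were higher and 3 lower, shares near those of all genes, or 6 and 6 with the block (3, 4, 4, 4, 3 and 5 rises and 1, 1, 1, 1, 1 and 6 falls with 1 library left out).

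Of the 12 protein-coding genes chosen for the largest falls most were long. ZFHX3, a homeobox factor spanning 1109.0 kb (ENSG00000140836, GRCh38 chromosome 16, 72782885 to 73891871), was at 104, 86.1 and 94.9 CPM in clean air and 12.3, 8.55 and 22.7 CPM after smoke (-2.71 ± 0.39, adjusted p = 0.00235). SRGAP1, a GTPase activator of 317.9 kb, was at 114, 108 and 97.9 CPM in clean air and 15.9, 11.5 and 23 CPM after smoke (-2.67 ± 0.31, adjusted p = 0.0011). FGD4, an exchange factor for CDC42 of 246.5 kb, was at 20.1, 22.1 and 18.5 CPM in clean air and 2.62, 2.85 and 4.71 CPM after smoke (-2.57 ± 0.25, adjusted p = 0.000914). In these 3 the groups did not overlap, a condition of their choice, and number 3 was the highest of the exposed. NFAT5, the tonicity factor, was at 149.5, 163 and 219.6 CPM in clean air and 26, 24.4 and 65 CPM after smoke (-2.21 ± 0.57, adjusted p = 0.0186), a call lost without clean air library 2 or 3 or complete smoke library 1 or 2, and its change was -2.82 without complete smoke library 3. RBM20 (-2.62 ± 0.45), MEGF9 (-2.29 ± 0.39) and PTPN14 (-2.21 ± 0.31) had spans of 195.1, 113.7 and 203.8 kb. ZNF469, with a span of 13.3 kb (-2.26 ± 0.37), was the shortest of the 12.

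Over all 12757 protein-coding genes tested, the direction of change followed the genomic span, the distance from the first to the last base of a gene in GENCODE 29. In the shortest quintile, up to 10.99 kb, 35.3% of genes passed as higher and 4.04% as lower, with a median of 0.54. The middle quintile, from 24.2 to 46.99 kb, had 11.8% and 13.3% and a median of 0.00. In the longest quintile, from 100.5 kb, 4.59% passed as higher and 41.0% as lower, with a median of -0.54. The medians fell from the shortest to the longest quintile within each sample number, from 0.57 to -0.54 in number 1, from 0.56 to -0.59 in number 2 and from 0.30 to -0.42 in number 3. They did so with library size alone (0.41 to -0.66) and with the block (0.52 to -0.56). The share of calls in a list of long or of short genes is therefore to be read against these quintiles as well as against all genes. The part of span in the change of any list was not tested. In BEAS-2B under the same exposure the medians ran from 0.68 in the shortest to -0.60 in the longest quintile.

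**Figure D3:**
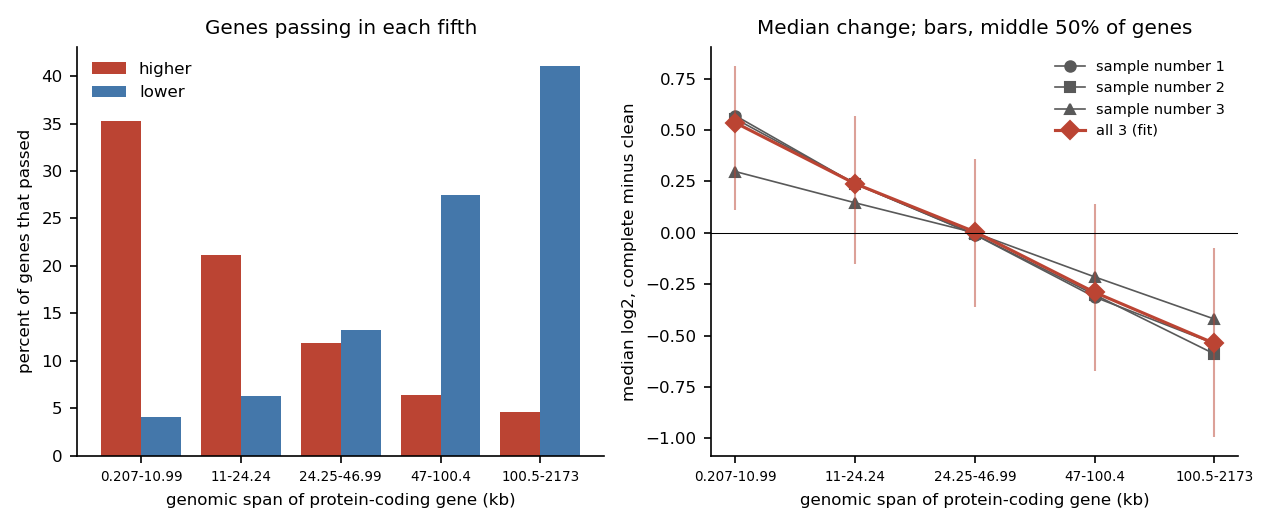
Left, percent of protein-coding genes that passed as higher (red) or lower (blue) in each quintile of genomic span, the span range given in kb under each pair of bars. Right, median log2 difference between complete smoke and clean air by quintile, within each sample number (grey symbols) and in the fit of all libraries (red diamonds, vertical bars spanning the lower to the upper quartile of genes). Higher calls fall from 35.3% to 4.59% and lower calls climb from 4.04% to 41.0%.

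In the list of the TGF-beta and BMP pathway 18 of 34 tested members passed as lower and 1 as higher, with a median of -0.79 (24 and 4 with the block), at a median span of 56.3 kb. This span, like that of the histone enzymes (83.0 kb), lies in the quintile from 47 to 100.4 kb. In that quintile the median of protein-coding genes was -0.29 and 27.5% passed as lower. TGFBR3 (betaglycan) was at 13.1, 12.7 and 15.4 CPM in clean air and 5.1, 3.14 and 5 CPM after smoke (-1.64 ± 0.25, adjusted p = 0.00263). BMPR2 was at 66.7, 73.3 and 79.7 CPM in clean air and 21.7, 22.9 and 36.4 CPM after smoke (-1.44 ± 0.29, adjusted p = 0.00806). SKI, which represses SMAD target genes, was at 56.5, 59.8 and 50.9 CPM in clean air and 11.2, 8.94 and 19.5 CPM after smoke (-2.08 ± 0.29, adjusted p = 0.00194). TGFBR1 (-1.29), TGFBR2 (-1.14), BMPR1A (-1.22), BMPR1B (-1.46 ± 0.23) and SMAD3 (-1.15) fell too, so receptors of both classes, an effector and a repressor moved the same way. The ligands TGFB1 (0.47), BMP4 (-0.06) and INHBA (1.68) did not pass, and GDF15, a distant member, was the riser. The falls numbered 17, 15, 17, 15, 12 and 22 with 1 library left out, beside 0, 1, 0, 1, 0 and 3 rises. The YAP and TEAD list, of the factors, their regulators and their targets, went both ways. TEAD1 was at 360.5, 388 and 384 CPM in clean air and 105, 94.8 and 163 CPM after smoke (-1.64 ± 0.31, adjusted p = 0.00673), and PTPN14 (-2.21), LATS2 (-1.18), WWTR1 (TAZ, -0.95) and YAP1 (-0.78) fell, as did AMOTL1 (-1.11), TGFB2 (-0.88) and CRIM1 (-0.86). The target CCN2 was at 32.6, 46.1 and 23.1 CPM in clean air and 81.4, 185 and 110.4 CPM after smoke (1.89 ± 0.34, adjusted p = 0.00562), and CCN1 (1.46), ANKRD1 (1.70) and TEAD2 (0.78) rose. CCN1 and CCN2 are also known as immediate early genes, and the calls of ANKRD1 and YAP1 were kept only without complete smoke library 3. The calls of TGFB2, CRIM1, AMOTL1, CCN1 and TEAD2 were each lost without at least 1 library. Of 22 members 4 rose and 9 fell (1, 2, 2, 2, 1 and 5 rises and 8, 7, 8, 7, 4 and 10 falls with 1 library left out). Of 34 collagens, laminins and integrins 4 fell and 1 rose (12 and 6 with the block), with 0, 0, 1, 1, 1 and 2 rises and 1, 1, 2, 3, 0 and 7 falls with 1 library left out. COL4A1 (-1.09 ± 0.26, lost without clean air library 1 or complete smoke library 2) and ITGA2 (-1.79 ± 0.57, kept only without complete smoke library 3, at -2.51) were among those that fell.

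Genes of the energy supply rose by small amounts. Of 74 tested nuclear-encoded subunits of the respiratory chain and ATP synthase 47 rose and none fell (69 and 0 with the block), with a median of 0.72, at a median span of 12.3 kb. NDUFS7, a complex I subunit, was at 15.8, 20.7 and 13.4 CPM in clean air and 43.6, 40.8 and 21.8 CPM after smoke (1.09 ± 0.36, adjusted p = 0.0445). CYC1, cytochrome c1 of complex III, was at 142, 125 and 119 CPM in clean air and 299, 310.0 and 175 CPM after smoke (1.02 ± 0.28, adjusted p = 0.0236). SDHB of complex II (0.95), COX8A of complex IV (0.85) and ATP5MC1 of the ATP synthase (0.89) rose as well, so each complex had risers. In NDUFS7 and CYC1 complete smoke library 3 was the lowest of the exposed, and both calls were kept only without it. The rises numbered 4, 1, 2, 1, 1 and 68 with 1 library left out, with no falls. Among mitochondrial ribosomal proteins 19 of 76 tested rose and 2 fell (57 and 2 with the block), with a median of 0.58 at a span of 12.5 kb, and 57 rose without complete smoke library 3 but 0 or 1 without any other library. The median spans of both lists lie in the quintile from 11.0 to 24.2 kb, in which the median of protein-coding genes was 0.24 and 21.2% passed as higher. Of 23 cytosolic aminoacyl-tRNA synthetases and their scaffold proteins 4 rose and none fell, or 8 and 1 with the block (1, 2, 2, 1, 1 and 8 rises and 0, 0, 0, 0, 0 and 1 falls with 1 library left out), QARS1 among the risers (0.70 ± 0.14). Of 33 tested autophagy genes 4 rose and 2 fell, or 10 and 5 with the block (1, 1, 2, 3, 1 and 7 rises and 1, 1, 1, 1, 1 and 3 falls with 1 library left out), with MAP1LC3A, an ATG8 protein, at 3.34, 4.82 and 3.2 CPM in clean air and 8.58, 10.1 and 11 CPM after smoke (1.38 ± 0.24, adjusted p = 0.00452), and ULK1, the initiating kinase, at 128, 129.8 and 109 CPM in clean air and 62, 47.7 and 70.1 CPM after smoke (-1.03 ± 0.16, adjusted p = 0.00319). SQSTM1 (p62) did not pass (-0.36 ± 0.16).

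**Figure D4:**
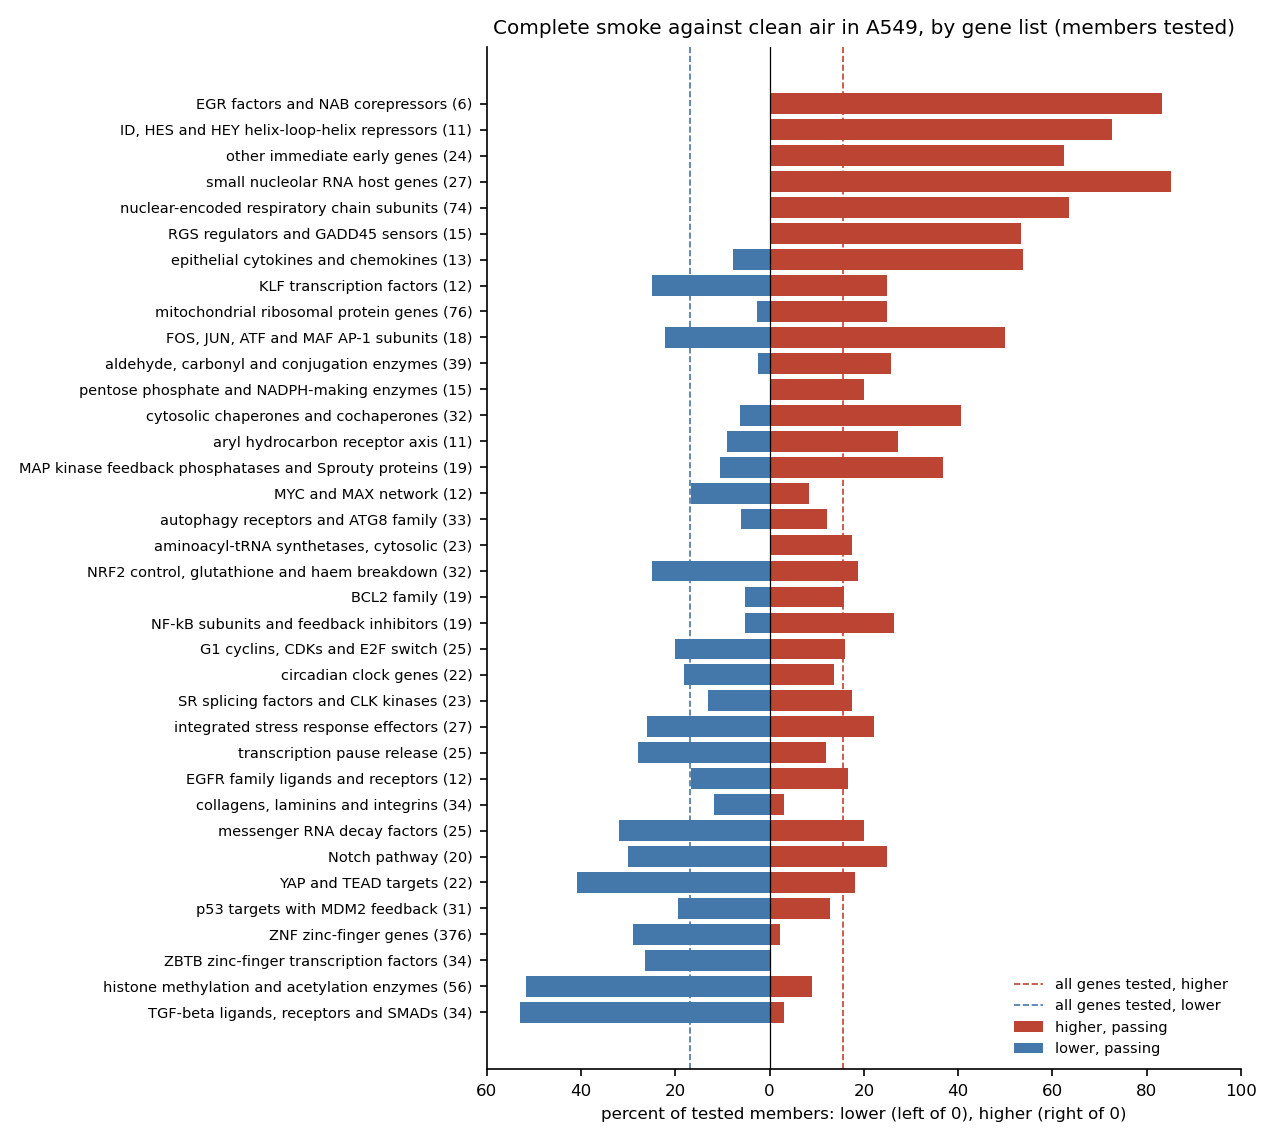
Percent of the tested members of each gene list that passed as higher (bars to the right) or lower (bars to the left) after complete smoke, ordered by the median log2 change, with the number tested in brackets. Dashed lines give the share of all 15244 genes, 15.6% higher and 16.9% lower. Small nucleolar RNA host genes and EGR factors have the longest bars to the right, and the TGF-beta and histone enzyme lists the longest to the left.

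Host genes of small nucleolar RNAs, whose introns carry these RNAs and whose spliced transcripts are short-lived, rose in 23 of 27 tested cases and fell in none, with a median of 0.97 at a span of 4.98 kb. SNHG1 was at 104, 109 and 84.8 CPM in clean air and 231, 340.1 and 226 CPM after smoke (1.42 ± 0.19, adjusted p = 0.00194). SNHG12 was at 12.9, 15.2 and 9.6 CPM in clean air and 30.1, 47.8 and 23.5 CPM after smoke (1.43 ± 0.28, adjusted p = 0.00737). SNHG30 was at 4, 2.91 and 1.97 CPM in clean air and 12, 10.9 and 6.93 CPM after smoke (1.74 ± 0.38, adjusted p = 0.0109). All 3 were higher in every exposed library, a condition of the rule that placed them among the 4 highest long noncoding genes. GAS5 (0.95), ZFAS1 (0.97) and DANCR (1.11) rose too. The rises numbered 13, 14, 13, 13, 11 and 23 with 1 library left out, beside 0, 0, 0, 0, 0 and 1 falls. The long noncoding gene chosen for the largest rise was ENSG00000272512 (GRCh38 chromosome 1, 995966 to 998051), at 1.21, 1.05 and 1.29 CPM in clean air and 8.08, 10.2 and 29.5 CPM after smoke (3.75 ± 0.58, adjusted p = 0.00292, and 2.96 without complete smoke library 3). Among those that fell were ENSG00000261786, at 44.3, 50.4 and 47.8 CPM in clean air and 16.3, 11.4 and 19.3 CPM after smoke (-1.60 ± 0.25, adjusted p = 0.00291), and LINC00294, at 44, 44 and 39.6 CPM in clean air and 13.3, 12.3 and 17.3 CPM after smoke (-1.57 ± 0.21, adjusted p = 0.00188). The nuclear RNAs NEAT1 (-0.27 ± 0.27, adjusted p = 0.448) and MALAT1 (-0.93 ± 0.41, adjusted p = 0.099) did not pass, although MALAT1 passed with the block (adjusted p = 0.00116).

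The same exposure in BEAS-2B cells, seeded at 500000 in place of 400000 cells, was compared through the difference of the changes. Of 17703 genes 308 differed between the lines (1.74%, the interaction of line and exposure in a fit of all 18 libraries), 100 with a higher and 208 with a lower change in BEAS-2B. Among the 180 genes named by rule, 18 differed. In the fit of all 18 libraries CYP1A1 changed by 3.38 ± 0.71 in A549 and -1.42 ± 0.67 in BEAS-2B, and CYP1B1 by 1.82 ± 0.46 and -1.18 ± 0.45. The fall of CYP1A1 within BEAS-2B did not pass (edgeR, adjusted p = 0.0877). With 1 library left out, the line difference of CYP1A1 passed in 8 of 12 cases and that of CYP1B1 in 4. NRARP changed by 3.99 ± 0.33 and 0.96 ± 0.29. EGR2 changed by 5.71 ± 0.50 and 2.81 ± 0.44. PER1 changed by 1.83 ± 0.30 and -0.08 ± 0.29. BEAS-2B complete smoke library 3 held 12.6% of its uniquely mapped reads outside genes, and 31.7% of all its reads were multimapping, apart from the other BEAS-2B libraries. The number of differing genes was 564 without it. It ran from 87 without A549 clean air library 2 to 797 without BEAS-2B clean air library 1, and with the block it was 3541.

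**Figure D5:**
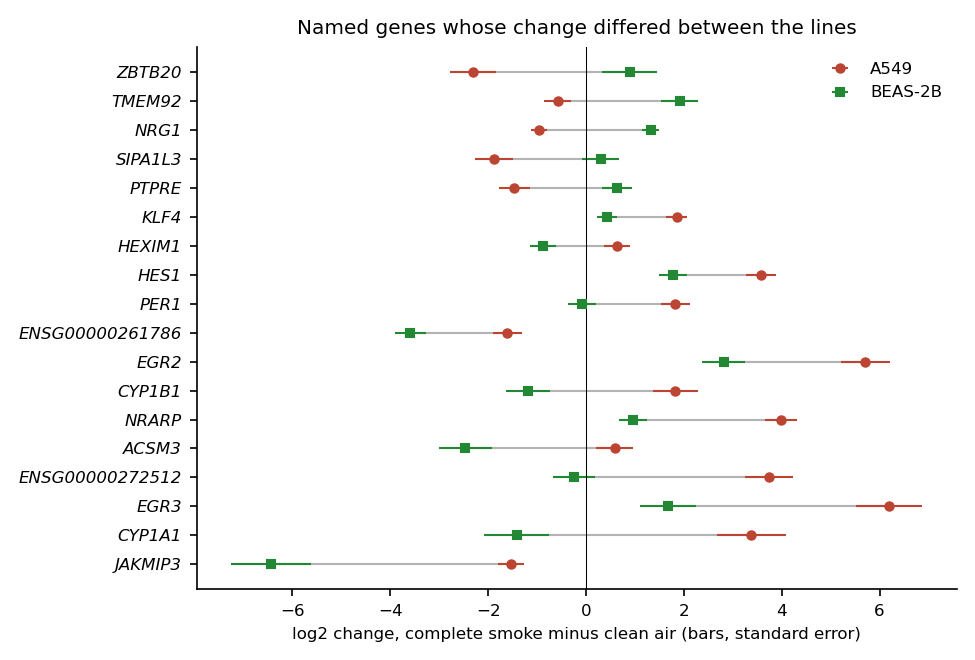
Log2 change between complete smoke and clean air in A549 (circles) and BEAS-2B (squares) with its standard error, from the fit of all 18 libraries, for the 18 named genes whose change differed between the lines, ordered by the difference. CYP1A1 and CYP1B1 lie above 0 in A549 and below 0 in BEAS-2B, NRG1 and TMEM92 the other way round, and EGR2, EGR3, HES1 and NRARP lie above 0 in both. JAKMIP3 had no read in any BEAS-2B library exposed to complete smoke, so its fitted value there depends on the prior count.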

How the data were processed

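Messenger RNA was captured from 18 libraries, of which the 6 A549 libraries of complete smoke and clean air are described. The authors aligned reads and counted them per gene with STAR 2.7.10b on GRCh38, per the submitters' processing notes, and deposited whole-number counts for 62649 gene identifiers. The annotation release is not given in the sources used here. Each table has 3 count columns, without column names. The column for the reverse strand was used, which held over 10 times the counts of the opposite strand although the labels name a kit that does not mark strand. The 4 lines of read classes were left out of library sizes and tests: multimapping reads took 9.63% to 11.8% of all reads in the 6 libraries and reads outside genes 3.27% to 7.56% of uniquely mapped reads.

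Counts of the 9 A549 libraries were fitted with edgeR 4.0.16 in R 4.3.3 (trimmed mean of M-values scaling, filterByExpr, robust quasi-likelihood test, no block). Adjusted p values are Benjamini-Hochberg over all genes tested, with a threshold of 0.05. CPM use the scaled library sizes. Alternatives were DESeq2 1.42.0, limma 3.58.1 (voom), other scalings, filters, a 2-fold minimum, and each library left out. The labels do not say whether the sample numbers pair the libraries. Deviations from the group means correlated by 0.24, 0.22 and 0.36 between same-numbered complete smoke and clean air libraries. Between differently numbered ones the values ran from -0.26 to 0.08. Deviations from a group mean sum to 0, so positive values in some pairs bring negative ones in others. The number was used as a replicate block in a second fit, and calls with the block rest on this pairing. In simulated data 54% of 2-fold and 99% of 4-fold changes (100 genes each of 14678) were recovered. The biological coefficient of variation was 0.21. No pair of libraries held identical counts.

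Identifiers were matched to symbols (42300 of 62649) and to GENCODE 29 (58225), from which coordinates and genomic spans come. Promoters are RefSeq's on GRCh38.p14, searched on both strands from 250 bases before to 50 after the start. Of 12757 protein-coding genes tested, 10353 matched a promoter.

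Genes were named by rule: the 12 highest and 12 lowest log2 changes among protein-coding genes and the 4 and 4 among long noncoding genes (passing, mean of at least 5 CPM, a read in each of the 6 libraries, no overlap of groups), up to 4 passing members of each list with the largest change, and 30 fixed genes whatever their values. For the line difference, up to 5 of the highest and 5 of the lowest differences were added. Other list members stand as examples, chosen after their values were seen. The members and lists were chosen with earlier results of these data known. Some genes are not reported here.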

Additional observations from a re-analysis of the deposited data

Results flagged for a closer look

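Of the 180 named genes 18 had a change after complete smoke that differed between BEAS-2B and A549 by the interaction term of the edgeR fit (adjusted p under 0.05 over 17703 genes, of which 1.74% differed), and all 18 also differed with the replicate block. The values are log2 differences, the BEAS-2B change minus the A549 change.

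The change was lower in BEAS-2B in 13 genes: EGR3 (-4.52), EGR2 (-2.90), NRARP (-3.03), HES1 (-1.79), CYP1A1 (-4.80), ENSG00000272512 (-3.99), ENSG00000261786 (-1.98), KLF4 (-1.43), CYP1B1 (-3.005), PER1 (-1.91), HEXIM1 (-1.515), JAKMIP3 (-4.91) and ACSM3 (-3.05). Those include the growth signal factors EGR2, EGR3 and KLF4, the Notch genes HES1 and NRARP, the clock gene PER1 and both CYP1 genes. JAKMIP3 had no read in any BEAS-2B library exposed to complete smoke, so its fitted value depends on the prior count and is no bound.

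It was higher in 5 genes: ZBTB20 (3.20), NRG1 (2.27), TMEM92 (2.50), SIPA1L3 (2.18) and PTPRE (2.11). In BEAS-2B, ZBTB20 was near the floor. It was at 0.315, 0.616 and 0.62 CPM in clean air and 0.427, 0.428 and 2.1 CPM after complete smoke. NRG1 encodes an ERBB3 ligand, PTPRE a tyrosine phosphatase and ZBTB20 a repressor.

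With each of the 12 libraries left out in turn, NRARP, ENSG00000272512 and NRG1 differed in all 12 cases and TMEM92 in 11. EGR3, CYP1A1, KLF4 and JAKMIP3 differed in 8, HES1 and ACSM3 in 6, EGR2, PER1 and PTPRE in 5, ZBTB20, ENSG00000261786 and CYP1B1 in 4, HEXIM1 in 3 and SIPA1L3 in 1. BEAS-2B complete smoke library 3 had 31.7% multimapping reads and 12.6% of its uniquely mapped reads outside genes. The part of this library in these differences was not tested beyond leaving it out.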

How the results depend on the processing

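The number of genes changed by complete smoke (4951) stayed within 1.5 times under DESeq2, limma-voom, other scalings, other filters, counts that ignore strand and a fit of only the 6 libraries. It was 2574 in a fit of all 18 libraries, 1887 with a 2-fold minimum and 8321 with the sample number as a replicate block. Leaving out 1 library gave 1422 to 6805. Between complete and filtered smoke, where no gene passed, DESeq2 called 3 genes, the fit without a low-count filter 19 and the paired fit with the block 1. The line difference (308 genes) was 900 with DESeq2, 1571 with library size alone, 797 without a low-count filter and 3541 with the replicate block, and 87 to 797 with 1 library left out. With library size alone the median of all genes moved by -0.56 in that contrast. The causes were not tested, and the fits with a library less hold fewer samples.

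Of the 180 named genes 166 passed, all 166 also with the block, which brought 7 more past the threshold and changed no other call among them. None reversed in any setting, and 99 passed in all 17. The fit of all 18 libraries lost 40 of the calls, among them SLC7A11, GCLM, TKT, IL6, CXCL2, NFAT5, KAT6B, HEXIM1, NDUFS7 and CYC1, library size alone lost 14 and limma-voom 9. Library size alone turned the sign of the median of 4 lists, to below 0: NRF2 (0.12 to -0.00), BCL2 (0.09 to -0.03), NF-kB (0.03 to -0.07) and G1 (0.01 to -0.12). Depth limits genes with few control reads. The share of 2-fold changes missed in the real data is not known, since the simulation changed far fewer genes and gave all of them the same spread.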
